A study of Mus musculus with 6 samples.

Results

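The trypsins and Spink1, the peptide that inhibits them, were followed in the spleens of young mice exposed to lead during development. The 8 genes considered were Try4, Try5, Try10, Prss1, Prss2, Prss3, 2210010C04Rik and Spink1, and a probe was taken when its annotation gave 1 of these symbols and no other. This left 7 of the 35587 probes on the array, for 5 genes. Spink1 and Prss3 had 2 probes each, Try5, Prss2 and 2210010C04Rik had 1 each, and no value is given for Prss1, Try4 or Try10. The genes were selected on their measured intensities, which differed between Pb and control spleens, so that contrast is described here and not tested.

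Transcripts were measured in total spleen RNA of female BALB/c mice at postnatal day 21, with 1 Cy5-labelled CodeLink whole genome array per animal. One group of 3 mice was unexposed control, and the other group of 3 had received Pb at 0.1 mM since gestation day 8. The sources used here do not give the salt, the route or the litters. Values of single genes rest on 5 arrays, because Pb replicate 3 showed almost no relation, probe by probe, to the other arrays (r of 0.045 to 0.048 with the controls across probes, against 0.940 to 0.945 between controls). Pb replicate 2 had r of 0.656 to 0.666 with the controls before correction for position on the array and 0.917 to 0.918 after it. The correction fits each array to a reference that holds the controls, so this rise is no separate check of the array. The 12 measured markers of spleen cell types lay above the array median in the controls, from percentile 56.3 for Cd163 of red pulp macrophages to 99.8 for the erythroid Alas2. Ms4a1 of B cells was at a mean log2 level of 5.71 and Cd3e of T cells at 1.46, where an array median lies near 0. The number of arrays limits the precision of every value.

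Trypsins are digestive serine proteases. Acinar cells of the pancreas make and store them as inactive trypsinogens, enteropeptidase in the gut activates them by cutting off a short peptide, and active trypsin then activates the other digestive zymogens. Spink1 is made by the same acinar cells and blocks trypsin that becomes active too early. In the spleen, trypsin-like proteases are better known from mast cells and cytotoxic lymphocytes, which use other genes of the same fold. The mouse trypsin genes lie on chromosome 6 inside the T cell receptor beta locus.

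The 250 bases before the annotated start are shown for the 3 measured trypsin genes in the RefSeq promoter table of GRCm38.p6, because these genes were high in the same arrays. Capitals mark 3 motifs: TATAAA, the TATA box; CANNTG, the E-box that bHLH factors such as Ptf1a bind; and TTTCCC on either strand, the core bound by the Rbpj family within the acinar PTF1 complex. No capitals are shared between motifs in these windows.
Prss2 (chr6:41521526-41521775, plus strand): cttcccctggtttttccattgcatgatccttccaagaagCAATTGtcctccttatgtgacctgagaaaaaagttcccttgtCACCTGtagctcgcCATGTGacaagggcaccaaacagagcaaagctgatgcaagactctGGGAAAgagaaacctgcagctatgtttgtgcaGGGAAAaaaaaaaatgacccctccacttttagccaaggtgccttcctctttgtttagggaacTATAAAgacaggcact
Prss3 (chr6:41377614-41377863, minus strand): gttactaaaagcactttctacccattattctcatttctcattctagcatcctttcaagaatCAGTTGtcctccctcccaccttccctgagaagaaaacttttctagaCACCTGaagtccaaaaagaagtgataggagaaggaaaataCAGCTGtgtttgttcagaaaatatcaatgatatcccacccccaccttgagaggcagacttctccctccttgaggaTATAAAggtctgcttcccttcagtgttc
2210010C04Rik (chr6:41035510-41035759, minus strand): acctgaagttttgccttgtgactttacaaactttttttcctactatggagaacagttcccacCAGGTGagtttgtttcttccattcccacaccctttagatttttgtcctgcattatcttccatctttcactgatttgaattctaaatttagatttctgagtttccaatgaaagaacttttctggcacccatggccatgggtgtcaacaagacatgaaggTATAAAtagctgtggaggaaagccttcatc

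A TATAAA lay on the strand of the gene in all 3 windows, with its first base at -16 in Prss2, -28 in Prss3 and -30 in 2210010C04Rik, counted back from the start. Of 32841 promoter windows of this length in the table, 2.63% held a TATAAA on that strand in the last 50 bases. CANNTG was found 3 times in Prss2, 3 times in Prss3 and 1 time in 2210010C04Rik, and it occurs in 66.2% of all windows. TTTCCC was found 2 times in Prss2, both on the opposite strand, and was not in the other 2 windows, while 21.95% of all windows hold it. The windows of Prss2 and Prss3 were identical at 54.9% of aligned positions, and that of 2210010C04Rik at 48.1% with Prss2 and 46.6% with Prss3. These matches are letters in a window, and binding was not measured.

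Probes of all 4 measured trypsin genes were far brighter in both usable Pb spleens than in any control spleen. The 2 probes of their inhibitor Spink1 differed from each other. The probe sequences were not at hand, so it is not known whether probes of these related trypsin genes share targets. Of the 7 probes, 6 were higher in both Pb arrays than in all 3 controls. Among all 34949 probes used the share was 13.0%, and nothing is read from that comparison, since this contrast chose the genes. The median log2 difference of the 7 probes, Pb minus control, was 3.59, with a range from 0.70 to 7.24. The median over the 24464 probes tested was 0.030, with quartiles of -0.19 and 0.25.

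Try5 encodes a trypsinogen and showed the largest difference among these probes. Its deposited intensity, on a scale where the array median is near 1, was 0.141, 0.229 and 0.127 in control replicates 1 to 3, and 29.3 and 78.2 in Pb replicates 1 and 2. After position correction the log2 levels were -2.57, -1.94 and -3.11 in the controls and 4.54 and 4.85 in the Pb arrays. The control values thus lay among the dim probes, between percentiles 7.83 and 23.2 of their arrays, and the Pb values at percentiles 94.8 and 95.9. From a control level of -2.54 ± 0.59 (SD, n = 3), the log2 difference was 7.24, or 151-fold. No detection call was at hand, so a fold that starts from such dim controls is uncertain in size.

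Prss2, another trypsinogen, had deposited intensities of 0.177, 0.350 and 0.0133 in the controls and of 8.19 and 8.08 in the Pb arrays. The Pb arrays were close to each other, at log2 levels of 2.60 and 2.24, whereas the controls were spread over -2.66, -1.70 and -5.38. Control replicate 3 was near the bottom of its array, at percentile 0.567. The control level was -3.24 ± 1.91 (SD, n = 3) and the log2 difference 5.67, which was 5.17 without that array. The lowest Pb value still stood 3.94 above the highest control value.

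The trypsin gene 2210010C04Rik had deposited intensities of 0.426, 0.422 and 0.215 in the controls and of 9.002 and 7.61 in the Pb arrays. The corrected log2 levels were -1.29, -1.21 and -1.95 against 2.91 and 3.94. The groups did not overlap, and the gap between them was 4.11. From -1.48 ± 0.41 (SD, n = 3) in controls, the log2 difference was 4.91, or 30.01-fold.

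Prss3, a trypsin gene with 2 probes, was the one trypsin whose controls were not all dim. Its probe in array row 115 had deposited intensities of 1.20, 1.09 and 1.40 in the controls and of 4.33 and 7.62 in the Pb arrays. In corrected log2 levels the controls were tightly grouped at 0.0022, 0.073 and 0.20, and the Pb arrays stood apart from them and from each other at 2.71 and 4.65. The probe in array row 390 had deposited intensities of 0.241, 0.221 and 0.359 in the controls against 1.34 and 1.67 in the Pb arrays. Its corrected log2 levels were -2.18, -2.22 and -1.56 against 0.65 and 1.83. The log2 differences of 3.59 and 3.23 were alike in direction, and on both probes Pb replicate 2 was the higher Pb array. The control levels were 0.091 ± 0.099 and -1.99 ± 0.37 (SD, n = 3 each).

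**Figure D1:**
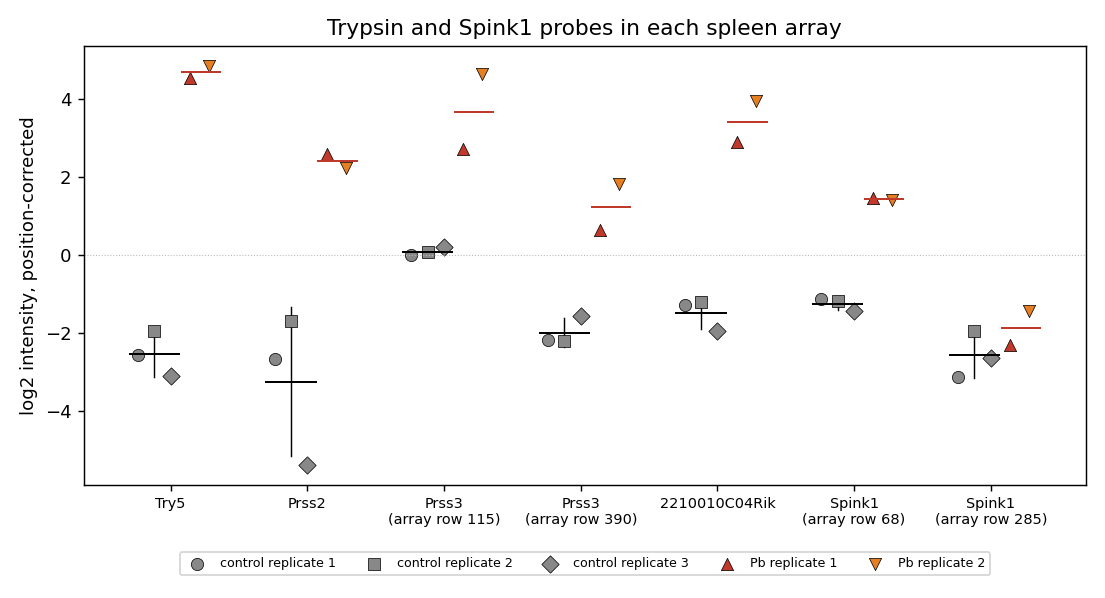
Position-corrected log2 intensity (vertical axis) of each trypsin and Spink1 probe in the 5 arrays. Grey symbols are the 3 controls and coloured triangles the 2 Pb arrays, black lines show the control mean with its SD, and red lines the mean of the Pb arrays. The Pb values lie above all controls for 6 probes, and the Spink1 probe in array row 285 overlaps.

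The inhibitor Spink1, a gene of chromosome 18, gave unequal answers on its 2 probes. On the probe in array row 68 the deposited intensities were 0.489, 0.434 and 0.447 in the controls and 2.23 and 0.692 in the Pb arrays. The corrected log2 levels were -1.13, -1.17 and -1.43 in the controls against 1.47 and 1.42 with Pb, which differ by 2.69. The near identity of the Pb arrays on this probe arose from the correction, which raised Pb replicate 2 by 1.95 and Pb replicate 1 by 0.32. Without it the log2 difference was 1.45.

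On the probe in array row 285 the deposited intensities were 0.110, 0.228 and 0.138 in the controls and 0.271 and 2.74 in the Pb arrays. Here the correction went the other way and lowered Pb replicate 2, a change of -2.88. The corrected log2 levels were -3.12, -1.94 and -2.64 against -2.31 and -1.43, so that Pb replicate 1 fell within the controls. The log2 difference was 0.70 after correction and 2.51 before it. This was the 1 probe of the 7 whose mean lay under the level set for testing, the 30th percentile of the mean over the 5 arrays (-1.56). The Prss2, Try5 and Prss3 (array row 390) probes also had control means under that level and passed it through their Pb values.

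Both Pb arrays were compared with each other, a contrast that the choice of genes did not use. Pb replicate 2 was higher than Pb replicate 1 on 5 of the 7 probes. The difference ran from -0.36 for Prss2 to 1.94 for Prss3 in array row 115, with a median of 0.88, where the 24464 probes tested had a median of 0.055 and 5th and 95th percentiles of -1.08 and 1.13. Prss3 exceeded that range on both probes, with 1.18 in array row 390, while 2210010C04Rik (1.04), Spink1 in array row 285 (0.88) and Try5 (0.32) lay inside it. This order came with the position correction. Without it Pb replicate 2 was higher on 4 of the 7 probes, and the differences were 0.82 and 0.32 for Prss3, 1.42 for Try5, -0.24 for 2210010C04Rik, -0.020 for Prss2, -1.69 for Spink1 in array row 68 and 3.34 for Spink1 in array row 285. Only the last lay outside the 5th to 95th percentiles of the probes tested, then -3.69 and 2.36. Whether the trypsins differed unequally between these animals was not tested. With 1 array per animal, a difference between animals cannot be told apart from a difference between arrays, and Pb replicate 2 was the wider array over all probes.

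**Figure D2:**
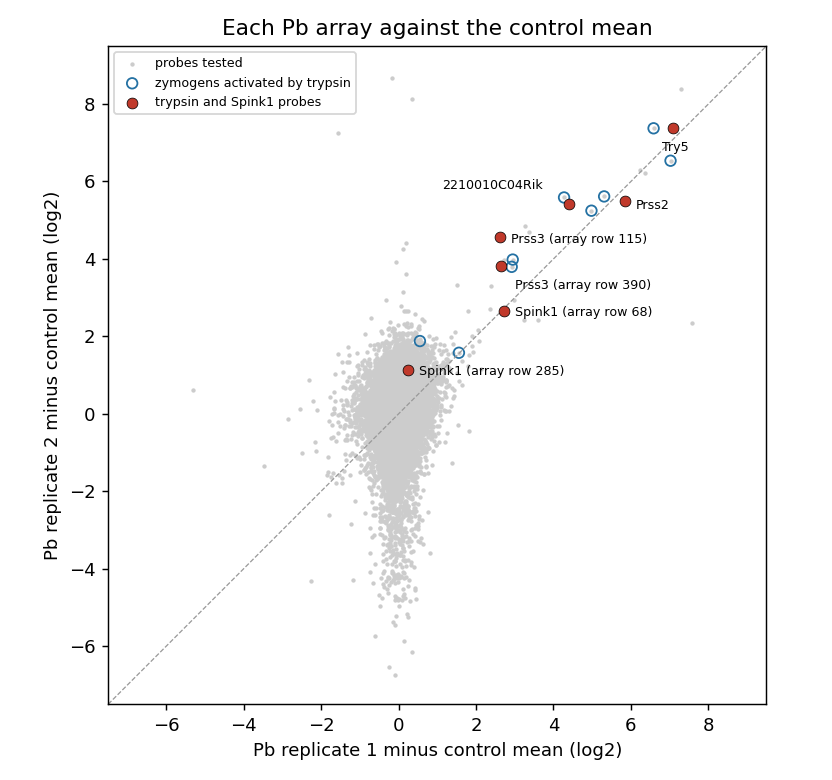
Log2 level of Pb replicate 1 (horizontal) and Pb replicate 2 (vertical) minus the mean of the 3 controls, for the probes tested (grey), the zymogens that trypsin activates (blue circles) and the trypsin and Spink1 probes (red). On the dashed line both Pb arrays are equal, and 1 grey probe lies outside the axes. Prss3 lies above the line and Prss2 just under it.

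Among the alternatives on 5 arrays, leaving out the position correction moved the difference most on 5 of the 7 probes. The exceptions were Prss2, which fell to 4.13 without Pb replicate 1, and 2210010C04Rik, which fell to 4.39 without Pb replicate 2. In Pb replicate 2 the correction moved Try5 by -1.44, Prss2 by -0.78, 2210010C04Rik by 1.01 and the Prss3 probes by 1.72 and 1.09. In Pb replicate 1 no probe of the 7 moved by more than 0.60. Without correction the log2 differences were 8.23 for Try5, 6.44 for Prss2, 4.61 for 2210010C04Rik, and 2.23 and 2.49 for Prss3. All 7 probes were then higher in both Pb arrays than in all controls, against 19.5% of all probes. Each probe kept a difference above 0 in 16 of 16 alternatives on 5 arrays. These reuse the same arrays, and those that change only the filter on dim probes cannot alter a difference.

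**Figure D3:**
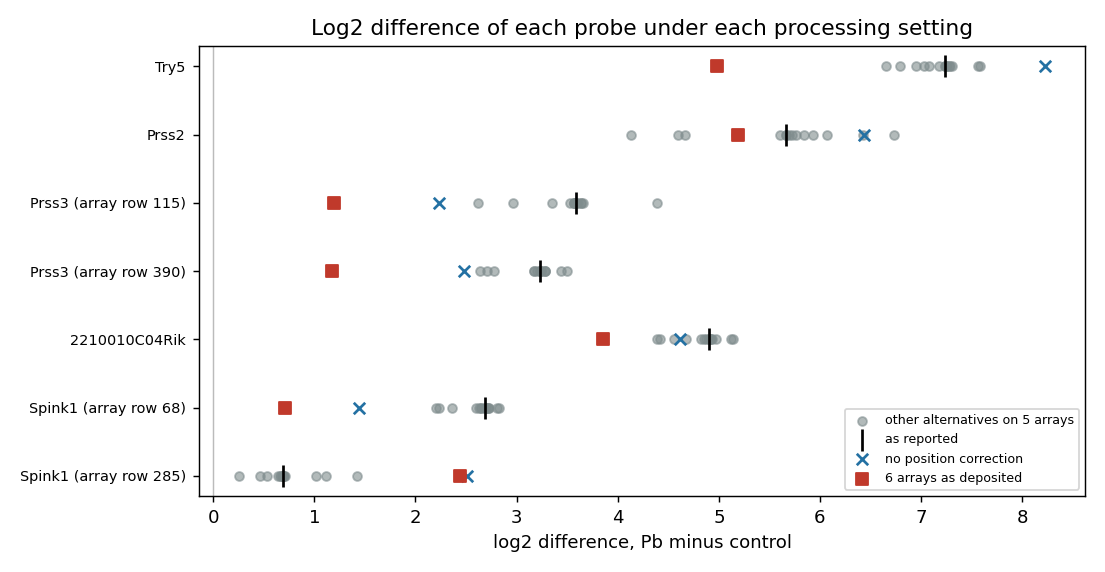
Log2 difference, Pb minus control (horizontal axis), of each probe (rows) as reported (black bar), without position correction (blue cross), over 6 arrays as deposited (red square) and under the other alternatives on 5 arrays (grey). All points lie above 0, and the blue crosses of the Spink1 probes stand at 1.45 and 2.51 against 2.69 and 0.70 as reported.

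Related genes were read from the same 5 arrays with limma over all 24464 probes tested, of which 0.0613% passed an adjusted p of 0.05, 15 higher in Pb and 0 lower. Of 46 tested genes in 7 lists around trypsin, 5 rose, 0 fell and 41 did not pass, and the 5 that rose were all zymogens that trypsin activates. Cpa1, a carboxypeptidase, rose by 6.98 on the log2 scale (SE 0.39, limma adjusted p = 0.00907). Cela3b, an elastase, rose by 6.78 (SE 0.47, limma adjusted p = 0.0155), and Cpb1, another carboxypeptidase, by 5.46 (SE 0.32, limma adjusted p = 0.0108). Ctrc, the chymotrypsin that also degrades trypsin, rose by 5.11 (SE 0.34, limma adjusted p = 0.0135), and the phospholipase Pla2g1b by 3.36 (SE 0.29, limma adjusted p = 0.0451). Cpa1, Cela3b and Cpb1 had control means of -2.46, -2.07 and -2.09, under the level set for testing (-1.56), and passed it through their Pb values. These zymogens had been seen to be high in earlier work on these data and are no independent evidence. Their calls were kept in 12, 9, 10, 10 and 7 of 16 alternatives, in the order given, with a highest adjusted p of 0.45 for Pla2g1b and 0 calls among the related genes without position correction (12 at an unadjusted p under 0.05) or without the filter on dim probes (11).

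The list of zymogens held 9 measured genes, and 9 of 9 were higher in both Pb arrays than in all controls, beside 13.0% of all probes. Their median log2 difference was 4.93. Of the 4 that did not pass, Cela2a, an elastase, had the largest difference, 4.93 from a control mean of -1.34 (limma adjusted p = 0.067). Ctrl, a chymotrypsin-like protease, had 3.47 (limma adjusted p = 0.067), Clps, the cofactor of pancreatic lipase, 1.57 (adjusted p = 0.10), and Cela1, an elastase, 1.21 (adjusted p = 0.62). Clps and Cela1 already stood at 2.46 ± 0.14 and 2.99 ± 0.18 (SD, n = 3 each) in the controls.

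The measured proteases that act on trypsin itself gave small differences apart from Ctrc. Ctsb, the lysosomal protease that can activate trypsinogen, was at 3.91 ± 0.24 (SD, n = 3) in controls, with a difference of 0.10 (95% confidence interval -0.40 to 0.60). Ctsl and Ctsd, lysosomal proteases that act on trypsinogen or on Ctsb, had 0.12 (-0.29 to 0.53) and 0.0015 (-0.47 to 0.47). Among the receptors that serine proteases open by cutting, F2r had -0.069 (-0.48 to 0.34), F2rl2 0.19 (-0.29 to 0.67) and F2rl3 -0.33 (-0.95 to 0.29). None of these 6 passed in limma, with adjusted p of 0.67 or above. The listed activator Tmprss15 and the listed receptor F2rl1 were not measured, so nothing is known of them here.

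Other inhibitors of serine proteases gave no calls, and Spink1 itself was described and not tested. Of 9 tested, 0 passed, and the 15 measured had a median log2 difference of 0.057. Spint2, a Kunitz inhibitor, was at 5.82 ± 0.13 (SD, n = 3) in controls and differed by -0.46 (limma adjusted p = 0.62). Serping1, the inhibitor of complement C1 proteases, differed by -0.096, and the antitrypsin genes Serpina1d and Serpina1e by 0.057 and 0.61. Serpina1 paralogs are near copies, so their probes may share targets.

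Proteases of the trypsin fold outside the pancreas gave 0 calls among 18 tested, with a median difference of 0.16 over the 27 measured. The mast cell tryptases Tpsb2 and Tpsab1 had 0.31 and 0.35 (limma adjusted p = 0.62 for both), with no overlap between the groups. Gzma, a granzyme of cytotoxic lymphocytes, had 0.37, and Prss36 0.16. Over this list 7 of 27 genes were higher in each Pb array than in any control, beside 13.0% of all probes.

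Of the regulators of acinar genes 0 of 4 tested passed. Rbpjl, a subunit of the acinar PTF1 complex, was at 1.39, 1.43 and 1.58 in the controls and at 1.76 and 2.08 with Pb, which gives a difference of 0.46 (95% confidence interval 0.0049 to 0.91, limma adjusted p = 0.62). Its paralog Rbpj had -0.092, Tcf3, the E protein partner of Ptf1a, -0.18, and Gata4 -0.38. The other 3 measured regulators lay under the level set for testing. Ptf1a, the bHLH subunit of PTF1, was at -1.50, -1.17 and -1.34 in the controls and lower in both Pb arrays, at -1.88 and -2.23, a difference of -0.72. Nr5a2 and Bhlha15, with -0.15 and 0.93, overlapped between the groups.

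**Figure D4:**
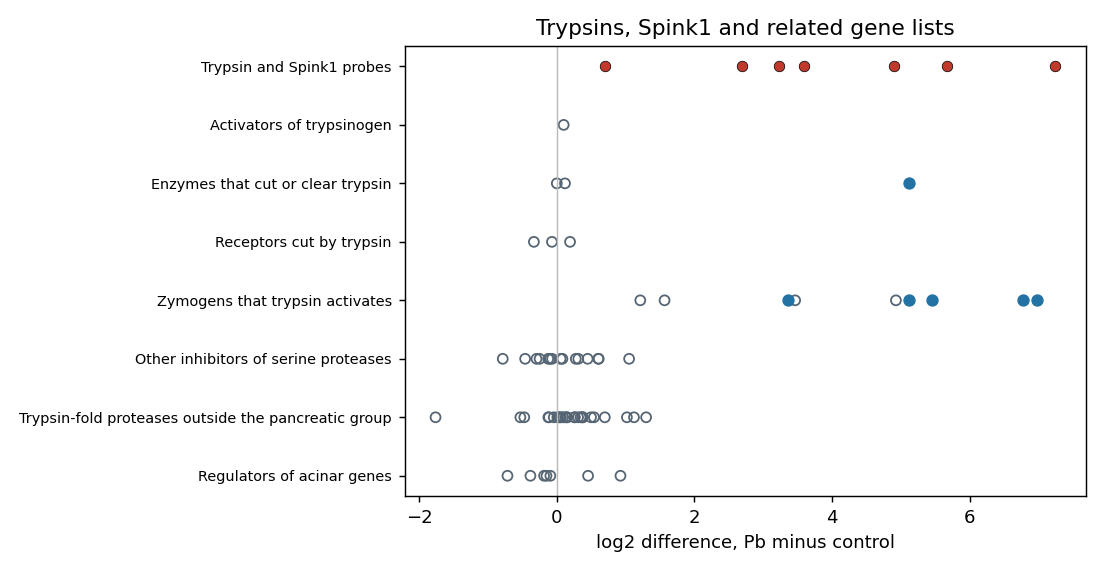
Log2 difference, Pb minus control (horizontal axis), of the trypsin and Spink1 probes (red, not tested) and of each measured gene in 7 related lists (rows). Filled blue points passed an adjusted p of 0.05 in limma and open points did not pass or were not tested. The zymogens reach from 1.21 to 6.98, and the other lists apart from Ctrc lie between -1.76 and 1.30.

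Markers of the cell types that a spleen sample could hold were summed on the linear scale. For 3 B cell markers the sum was 115.2 to 126.2 in the controls against 125.6 and 124.2 in Pb replicates 1 and 2. For 4 T cell markers it was 36.4 to 44.6 against 45.4 and 35.85. For 4 red pulp macrophage markers it was 19.5 to 24.2 against 22.1 and 27.1, and for Alas2 174.8 to 311.7 against 220.0 and 224.4. Of these genes only Cd3e (0.74, limma adjusted p = 0.62) was above all controls in both Pb arrays. Of 7 listed acinar markers apart from the trypsins, 5 were measured and 5 of 5 were higher in both Pb arrays than in all controls, beside 13.0% of all probes. Their sum was 1.80 to 1.93 in the controls, 75.5 in Pb replicate 1 and 103.9 in Pb replicate 2. Of these 5 markers, 3 (Cpa1, Cela3b and Cpb1) are zymogens already counted above. Pb replicate 2 was the higher Pb array for 4 of the 5 markers, Cela3b being the exception, and for 5 of the 7 trypsin and Spink1 probes. This order was not particular to them. It was seen for 4 of 4 red pulp macrophage, 2 of 2 adipocyte and 3 of 4 gut markers. Fewer T cell (1 of 4) and stomach (1 of 3) markers showed it. Without position correction it held for 4 of the 7 probes, and the marker counts and sums are given only as corrected. For 3 measured islet markers the sum was 1.30 to 1.42 in the controls and 1.33 and 1.45 in the Pb arrays. For 3 duct markers it was 1.27 to 1.65 against 1.61 and 1.80, for 4 gut markers 3.996 to 4.80 against 4.31 and 5.33, and for 3 stomach markers 4.87 to 5.81 against 4.90 and 4.59. For 2 adipocyte markers it was 3.15 to 5.59 against 3.49 and 9.07. For 4 mast cell and basophil markers it was 35.4 to 38.5 against 41.9 and 42.2. Markers within a list could go opposite ways. In the mast cell list Tpsb2 was higher in both Pb arrays than in all controls (0.31) and Cpa3 lower (-0.83). The same held for Gkn2 (1.38) and Gkn1 (-1.43) of the stomach and for Sst (0.45) and Gcg (-1.91) of the islets. These last 4 genes lay under the level set for testing, and the other markers of the 3 lists overlapped between the groups. No listed marker had a deposited intensity at or under 0 in all 3 controls. The part of such cells in the trypsin values was not tested. In whole tissue, more or fewer cells of a type cannot be told apart from more or less RNA per cell.

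The genes around the trypsins on chromosome 6 were also read. The RefSeq table of GRCm38.p6 lists 47 genes from the first to the last trypsin gene, 33 of them variable genes of the T cell receptor beta chain, and only 4 of the 47, all trypsins, had a probe of their own here. Among the 5 nearest measured genes on each side, 2 of 10 were higher in both Pb arrays than in all controls, near the 13.0% of all probes. One was Moxd2, with a difference of 0.29 (limma adjusted p = 0.64). The other was 1810009J06Rik, the measured gene next to 2210010C04Rik, at log2 levels of -2.79, -6.45 and -2.16 in the controls and -1.42 and -1.40 in the Pb arrays. Its difference of 2.39 was not tested because its mean lay under the level set for testing. Trbv1, a variable gene of the receptor, had -1.55 (adjusted p = 0.62), with Pb replicate 1 at 0.77 within the controls (0.65 to 1.39) and Pb replicate 2 at -1.88. On the other side Ephb6, Trpv6, Trpv5 and Kel had between -0.061 and 0.069, and Llcfc1 -0.46.

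**Figure D5:**
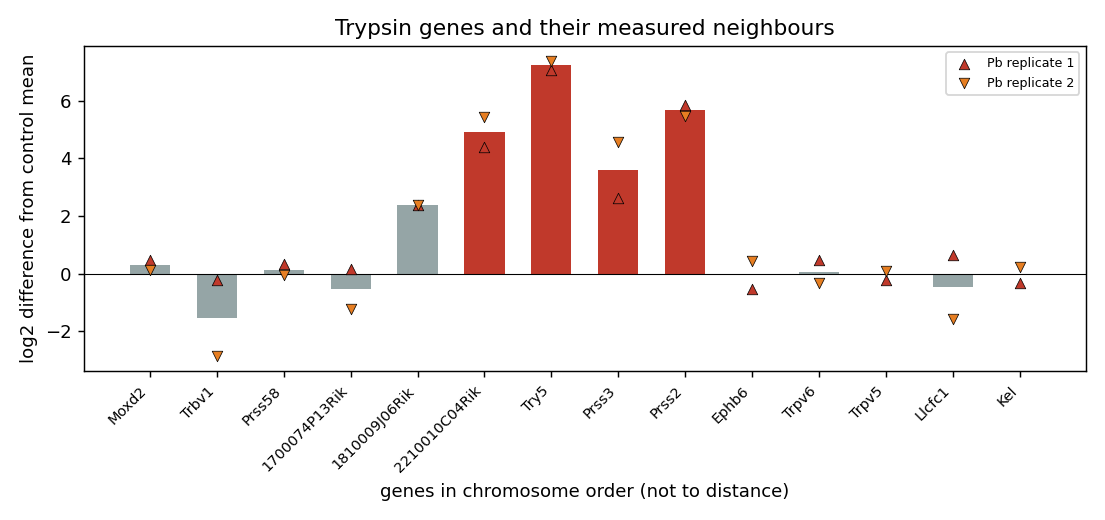
Log2 difference from the control mean (vertical axis) of the measured trypsin genes (red bars) and their nearest measured neighbours (grey bars) in the order of chromosome 6, with spacing not to scale. Bars are the mean of the 2 Pb arrays and triangles the single arrays. Each gene is drawn from 1 probe, the brightest in the controls, which for Prss3 is that in array row 115. The trypsins so drawn stand at 3.59 to 7.24 and Ephb6 to Kel between -0.46 and 0.069.

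Across the 5 arrays the 7 probes had a median Pearson r of 0.94 with each other, and the lowest, 0.58, involved Spink1 in array row 285. The mean profile of the 7 probes was compared with 545 probes of other named genes whose range over the arrays was at least 2 on the log2 scale. The most alike were Cpa1 (r = 0.999), Pde4d (0.992), Cela2a (0.991), Sycn (0.990) and Rnase1 (0.988), over 5 arrays. Cpa1, Cela2a and Rnase1 encode digestive enzymes and Sycn a zymogen granule protein, whereas Pde4d is a phosphodiesterase that degrades cyclic AMP. Pde4d was at -1.84, -1.63 and -1.95 in the controls and -0.36 and 0.31 in the Pb arrays. These r values describe 5 points in 2 groups, and any probe with a clear step between the groups has a high r.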

How the data were processed

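Spleen RNA of 6 mice was measured on CodeLink arrays, per the labels. The deposited values are linear probe intensities; their medians of 0.972 to 0.987 point to scaling per array by the authors, and the sources used here do not name the scanner software, background correction or normalisation. By the platform annotation 21615 probes had 1 gene symbol, 681 several and 13291 were not listed.

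Values at or under 0 (151 to 711 per array) were set to each array's 1st percentile among positive values before taking log2. Pb replicate 3 and the last array rows, where controls did not follow each other (r 0.038 to 0.175, 638 probes), were left out. Position was corrected in 2 rounds with mgcv 1.9.3: the deviation of an array from a reference (the average of the 3 controls and Pb replicate 1) was smoothed over row by level and row by column and subtracted (basis sizes were 40 along rows, 6 along levels and 8 along columns). The fit used limma 3.58.1 in R 4.3.3 (two-sided, Benjamini-Hochberg) on probes at or above the 30th percentile of the mean, and was checked on simulated data. That simulation gave all 5 arrays the same noise and changed only probes that were brighter in the controls. It thus did not cover calls that start from dim controls or the wider spread of Pb replicate 2. The genes, lists and settings were chosen with earlier results of these data known. Named were all measured activators, enzymes and receptors, of longer lists the 4 genes brightest in controls and any gene called, with 1 probe per gene, the brightest in controls; genomic neighbours, 5 per side; and the 5 genes with the most similar profile. The 3 untested regulators were added after their values were seen. All 8 genes were matched by symbol, 5 of them in the promoter table. Protein sequences were not used here.

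Replicate numbers are shared by the groups, but the labels give them no meaning. Deviations of same-numbered arrays had r of 0.026 and 0.00018.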

Additional observations from a re-analysis of the deposited data

Results flagged for a closer look

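Signals outside the comparison were found on 2 probes that the annotation gives to several trypsin genes, so no gene is named from them. The shared probe in array row 116 was at log2 levels of -2.18, -4.20 and -4.90 in the controls and 0.47 and -0.28 in the Pb arrays, a difference of 3.85. The shared probe in array row 390 was at -3.07, -2.76 and -3.61 in the controls and 3.22 and 3.09 in the Pb arrays, a difference of 6.30. On both, Pb replicates 1 and 2 were above all 3 controls.

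In Pb replicate 3, which no comparison used, the deposited intensity exceeded all 3 controls for 3 probes. It was 1.71 for 2210010C04Rik, 0.602 for Prss2 and 0.748 for Spink1 in array row 285. For Try5 (0.0557), both Prss3 probes (0.671 and 0.0979) and Spink1 in array row 68 (0.271) it was lower than in any control. Of all probes used, 45.6% were above all controls in that array, whose values did not follow the probes.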

How the results depend on the processing

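All 7 trypsin and Spink1 probes had a log2 difference above 0 in each of 112 comparisons on 5 arrays, and 14 of these moved by more than the SD within groups. The comparisons reuse the same arrays on which the genes were chosen. Settings that change only the filter on dim probes cannot alter a difference, so this count is a description. The median difference of 3.59 became 2.96 when the surface depended on array rows only, 2.51 with no correction at all, 2.44 over 6 arrays as deposited, and 2.72 to 4.13 with 1 array left out (lowest without Pb replicate 2, highest without Pb replicate 1). The 6 probes with both Pb arrays above all controls became 3 over 6 arrays, where Pb replicate 3 must be above too, and 6 to 7 with 1 array left out. The 15 probes past the adjusted threshold in limma became 0 without position correction (3608 at an unadjusted p under 0.05), 0 without the filter on dim probes (1980 unadjusted), 0 over 6 arrays (1746 unadjusted), 7 when arrays were weighted, and from 2 to 2926 when leaving out 1 array, the last without Pb replicate 1. The 5 called genes of the related lists became 0 in those first 3 settings (12, 11 and 6 unadjusted), 8 under the stricter 50th percentile filter, 1 when arrays were weighted, and from 0 to 11 when leaving out 1 array. With 1 Pb array left, it is assumed to vary like the controls. With the replicate block 7 probes passed in place of 15 and 4 related genes in place of 5. Only 2 replicate numbers are shared, so the numbers were not taken to pair the arrays. The cause of these changes was not tested. Levels near the bottom of the array, as in the controls of Try5 and Prss2, limit the folds.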
